A study of Mus musculus with 12 samples.

Results

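The inflammasome and pyroptosis genes examined here were Nlrp3, Aim2, Nlrc4, Pycard, Casp1, Casp4, Gsdmd, Il1b and Il18, 9 genes in all. Their accessible regions were collected from ATAC-seq summit lists of mouse bone marrow hematopoietic stem cells (HSCs). ATAC-seq cuts open chromatin with a transposase, and a summit is the point of strongest signal in a peak. Summits with a score of at least 3 in any of the 12 lists were widened by 250 bp on each side and merged, and a region was kept when it lay in the body of one of the 9 genes or within 10 kb of it. This gave 34 regions of 71006 in the whole catalogue, 1 of which was shared by Casp1 and Casp4. A summit's score is the −log10 of its q-value, so 3 stands for a q-value of 0.001.

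The libraries came from C57BL/6 mice, wild-type (WT) or Mlkl-/-, at 3 months of age (young) or 18 months (aged), with 3 libraries in each of the 4 groups. The labels name no treatment. Mlkl encodes the pseudokinase that carries out necroptosis, another form of lytic cell death, and the study asked how its loss bears on the aging of HSCs. A library held HSCs pooled across mice (from more animals at the young age than at the aged one), and all libraries were prepared on the same day, according to the study's methods. The spread between libraries is therefore a spread between pools.

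Pyroptosis begins when a sensor protein detects a microbial or damage signal in the cytosol. Sensors such as NLRP3, AIM2 and NLRC4 assemble with the adaptor ASC, the product of Pycard, into an inflammasome that activates caspase-1. Caspase-1 matures the cytokines IL-1β and IL-18 and cuts gasdermin D, whose fragments form pores in the plasma membrane, and caspase-4 (also called caspase-11 in mice) cuts gasdermin D when it senses lipopolysaccharide inside the cell. These genes are best known from macrophages and monocytes, in which Nlrp3 and Il1b have to be induced by inflammatory signals before the pathway can run.

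The lists held between 35714 and 61495 summits of score 3 or more, and aged lists were longer on average than young ones (mean 55000 summits in aged WT and 55500 in aged Mlkl-/- against 43000 and 46400 in young WT and young Mlkl-/-, n = 3 each). Summits at the starts of Y-linked genes were present in 3 of 6 young and 0 of 6 aged lists. The labels give no sex for the pools. The file names of 9 libraries held an extra tag, and its meaning is not given in the labels. For these reasons results are given below also with list length or Y-linked starts as a covariate and for the 9 tagged libraries alone. The start region of Mlkl itself (chr8:111337167-111338851) was called in all 12 lists, at places 23176 to 33805 in WT and 20941 to 35067 in Mlkl-/- lists, so the summit lists do not show the deletion. Of 10 HSC and early progenitor genes, 4 had a summit within 1 kb of a start in all 12 lists, against 50.2% of 21853 protein-coding genes. Slamf1, the gene of the HSC marker CD150, had one in none, and each list held 6 to 9 of the 10 genes. The monocyte and macrophage genes Csf1r and Adgre1, which define those cells, were at 0 in all lists, as were 33.1% of protein-coding genes. A monocyte list of 6 genes had 1 to 4 starts per young list and 2 to 4 per aged list. Neutrophil starts numbered 0 to 1 of 6 per list.

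Sequences of some of the regions described below are shown here, read from the RefSeq GRCm38.p6 genome (the mm10 build of the files) on the plus strand, 201 bases centred on the highest summit. Capitals mark matches on either strand to GGAAGT (ETS), TGTGGT (RUNX), GGANTTNCC (NF-kB), TGANTCA (AP-1), TTGCNNAA (C/EBP), GAAANNGAA (ISRE/IRF) or TTCNNNGAA (GAS). The Aim2 intron at 90.5 kb (chr1:173441292-173441492) held a region that passed the test of age. The Casp4 start (chr9:5308646-5308846) is the most highly placed start of a caspase of the set. The Aim2 intron at 86.9 kb (chr1:173437630-173437830) and the Il1b intron (chr2:129368174-129368374) were each retained in 1 group of the 4. The region upstream of Il1b (chr2:129373379-129373579) lies outside that gene, in an exon of the antisense transcript Il1bos. The Nlrc4 intron (chr17:74440634-74440834) lies inside its gene. Neither Il1b nor Nlrc4 was called at a protein-coding start.
Aim2 intron, 90.5 kb: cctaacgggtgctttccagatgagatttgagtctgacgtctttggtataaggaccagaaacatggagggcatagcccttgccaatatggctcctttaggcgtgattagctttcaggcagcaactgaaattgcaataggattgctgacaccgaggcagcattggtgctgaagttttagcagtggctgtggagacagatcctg
Casp4 start: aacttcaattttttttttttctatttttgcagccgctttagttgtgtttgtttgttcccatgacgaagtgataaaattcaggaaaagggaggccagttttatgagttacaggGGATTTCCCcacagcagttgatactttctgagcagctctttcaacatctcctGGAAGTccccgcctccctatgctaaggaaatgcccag
Aim2 intron, 86.9 kb: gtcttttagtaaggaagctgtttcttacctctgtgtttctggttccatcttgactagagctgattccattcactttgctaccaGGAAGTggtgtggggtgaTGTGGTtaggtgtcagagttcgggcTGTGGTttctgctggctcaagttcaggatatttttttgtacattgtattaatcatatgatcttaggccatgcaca
Il1b intron: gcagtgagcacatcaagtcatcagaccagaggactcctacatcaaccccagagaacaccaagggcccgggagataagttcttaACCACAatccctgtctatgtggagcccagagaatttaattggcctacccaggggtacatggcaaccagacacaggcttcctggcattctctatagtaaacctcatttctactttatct
Il1b upstream: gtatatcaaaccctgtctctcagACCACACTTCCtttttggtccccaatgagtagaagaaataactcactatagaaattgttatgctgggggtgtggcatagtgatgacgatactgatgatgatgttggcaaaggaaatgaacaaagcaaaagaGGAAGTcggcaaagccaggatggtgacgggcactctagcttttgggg
Nlrc4 intron: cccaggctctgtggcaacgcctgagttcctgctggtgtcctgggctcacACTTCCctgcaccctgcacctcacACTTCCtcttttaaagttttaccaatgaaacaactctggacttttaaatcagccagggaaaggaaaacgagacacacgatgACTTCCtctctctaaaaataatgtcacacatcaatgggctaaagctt

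Of the 34 regions, 9 (26.5%) were called in all 12 deposited lists, against 28.6% of all regions, and 8 (23.5%) were called in 1 list, against 17.0%. Called means that the list held at least 1 summit of score 3 or more in the region. Summits lay in introns in 19 regions, between genes in 10 and in exons in 5. The nearest transcription start belonged to one of the 9 genes for 21 regions and to a neighbour, such as Cadm3 beside Aim2 or Casp12 beside Casp4, for the other 13. Regions called in aged lists alone numbered 6 (17.6%, against 21.1% of all regions), and those called in young lists alone 3 (8.82%, against 8.85%). All of these were called in 1 list except the Casp12 start, called in 3 aged lists.

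**Figure D1:**
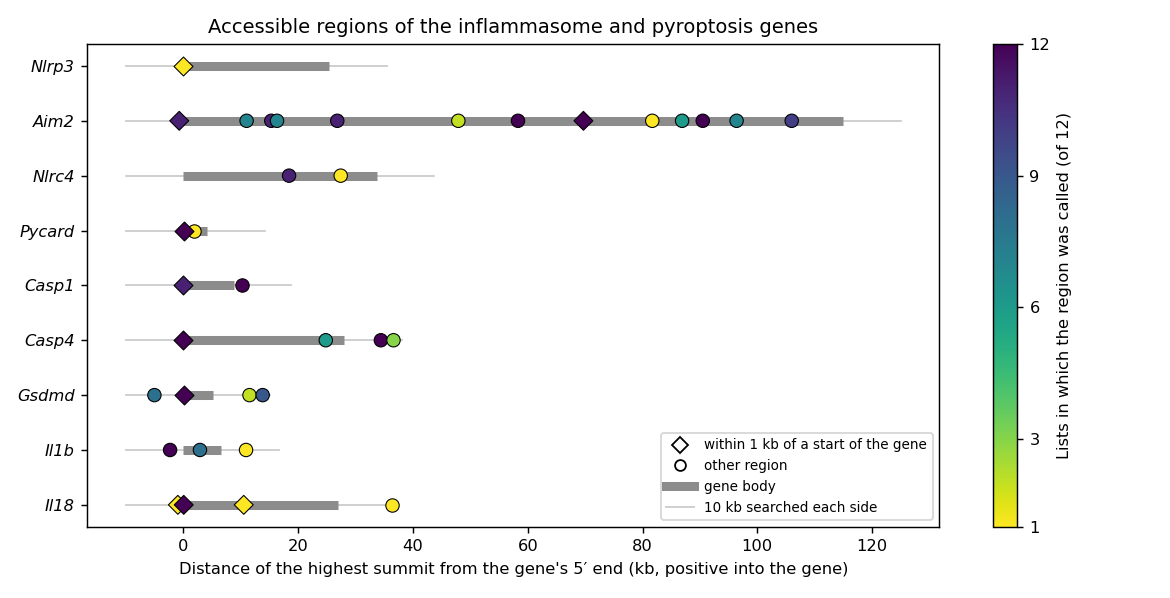
Position of the 34 regions relative to the 5′ end of each gene (x axis, kb), with 1 row per gene, diamonds for regions within 1 kb of a start of the gene, circles for the others and colour for the number of lists of 12 that called the region. Starts of Casp4, Gsdmd, Pycard, Aim2 and Il18 were called in all 12 lists, while Nlrc4 and Il1b have no diamond and Nlrp3 has one called in 1 list.

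Starts were read from protein-coding transcripts of the GENCODE M21 annotation. A summit within 1 kb of a start was present in all 12 lists for 5 of the 9 genes, in 11 lists for Casp1, in 1 list for Nlrp3 and in 0 lists for Nlrc4 and Il1b. Among 21853 protein-coding genes, 50.2% had such a summit in all 12 lists and 33.1% in none. The 5 genes with a start in all lists (55.6%) were Aim2, Pycard, Casp4, Gsdmd and Il18, a share near that of all genes. In sorted bulk cells, fewer cells with an open site and a less open site in each cell cannot be told apart. That a start was not called means that no summit passed the score limit at the depth of that list, which the lists do not give.

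Among the sensors, Nlrp3 (chr11:59541568-59566956, plus strand) had the fewest regions, 1 in 45.4 kb searched. This region at its start (chr11:59541305-59541805, summit 0.013 kb upstream) was called in aged WT library 2 alone. Its place there was 32470, where place 1 is the highest score of a list. The other 11 lists held no summit anywhere in the gene or its flanks.

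Nlrc4 (chr17:74425438-74459142, minus strand), the sensor of bacterial flagellin and secretion systems together with NAIP proteins, was called inside the gene and not at its start. Its intronic region at chr17:74440434-74441061, 7472 bp from the nearest start of the gene, was called in 11 lists. Places there were 18215 and 14255 (not called in library 3) in the young WT libraries and 22271, 23338 and 18568 in the young Mlkl-/- ones, then 12777, 29014 and 20645 in those of aged WT and 14508, 18912 and 12008 in those of aged Mlkl-/-. The groups overlapped, and the age difference of the normal scores explained below was 0.14 ± 0.27 (SE, adjusted p = 0.803). A further Nlrc4 region was called in 1 young Mlkl-/- list.

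Aim2 (chr1:173350879-173466040, plus strand), which encodes a sensor of double-stranded DNA in the cytosol, held 13 of the 34 regions, in a gene body of 115.0 kb that the annotation extends over part of the neighbouring Cadm3. Its starts were called at 2 places. The inner start, which is also the one in RefSeq (chr1:173420250-173420819, summit 51 bp from the start), was called in all 12 lists, at places 4733 to 17882. The outer start, that of the longest transcript (chr1:173349729-173350388, in an intron of Cadm3), was called in 11 lists at places 9201 to 28545 and was missing from young Mlkl-/- library 1. An intronic region 11379 bp upstream of the inner start (chr1:173408969-173409522) was called in all 12 lists, at places 2056 to 17570, and was the most highly placed of the Aim2 regions by median (5758), with an age difference of −0.14 (95% interval −0.51 to 0.24). Its other regions were called in 1 to 11 lists, apart from the region at 90.5 kb described with the test of age.

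Pycard (chr7:127989708-127993867, minus strand), the adaptor ASC, was called in all 12 lists at its start (chr7:127993391-127994090), with the summit in exon 1, a UTR, 37 bp from the start. Places were 23999, 16461 and 10034 in WT and 8934, 13530 and 20921 in Mlkl-/- among the young libraries, and 11580, 16082 and 19036 in WT and 12764, 4564 and 11147 in Mlkl-/- among the aged. The groups overlapped. A further Pycard region in exon 3 was called in 1 aged Mlkl-/- list.

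Casp1 (chr9:5298517-5307265, plus strand), the inflammasome caspase, and Casp4 (chr9:5308828-5336783, plus strand) lie next to each other. The Casp1 start (chr9:5297874-5299056, 12 bp from the summit) was called in 11 lists at places 15050 to 38291, and was missing from young WT library 3. Its places in aged WT were 17079, 15050 and 18998, and the called young WT libraries were at 38291 and 27751. Young Mlkl-/- libraries were at 20039, 33551 and 23714, and aged Mlkl-/- ones at 29430, 27400 and 34127. The Casp4 start (chr9:5308467-5309443, 82 bp from the summit) was called in all 12 lists. Its places were 18605, 9720 and 12346 in the young WT libraries and 11263, 8220 and 14594 in the young Mlkl-/- ones, then 4181, 8804 and 5337 in those of aged WT and 6915, 5999 and 4140 in those of aged Mlkl-/-. Of the start regions of the 9 genes, that of Casp4 (median place 8512) and the inner start of Aim2 (7701) were placed highest, and their ranges overlapped. An intronic Casp4 region (chr9:5333278-5333924) carried a summit in 6 lists, 5 of them aged. After trimming to equal length it was retained in 1, and it was not tested.

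Gsdmd (chr15:75862327-75867408, plus strand) encodes the pore-forming protein. All 12 lists called its start (chr15:75861953-75862683, with the summit in exon 1, a UTR), at places 11027 to 43125. The spread within groups was wide: aged WT libraries were at 12198, 12207 and 40343, and aged Mlkl-/- libraries at 43125, 38599 and 20337. Regions upstream (chr15:75856855-75857691) and downstream (chr15:75875804-75876415) were called in 8 and 9 lists, and their age differences were −0.45 (95% interval −1.03 to 0.12) and 0.43 (−0.14 to 1.01). A further region (chr15:75873301-75874110) was called in 2 lists.

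Il1b (chr2:129364570-129371139, minus strand) was not called within 1 kb of a protein-coding start in any list. Its intronic region (chr2:129368003-129368586) lay 923 bp from an annotated Il1b start that is not protein-coding, and was called in 8 lists. A region 2340 bp upstream of the gene (chr2:129373219-129373799, in exon 3 of the antisense transcript Il1bos) was called in all 12. It was the most highly placed of the 34 regions by median place (4486). Its places were 3143, 6139 and 4849 in WT and 9581, 6663 and 5518 in Mlkl-/- among the young libraries, and 1197, 1902 and 3536 in WT and 4124, 11149 and 2229 in Mlkl-/- among the aged. As its nearest start is that of Il1bos, 0.35 kb away, the lists do not say which of the genes it belongs to.

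Il18 (chr9:50554827-50581840, plus strand) was called in all 12 lists at its start (chr9:50554599-50555363, with the summit in exon 1, a UTR). Places were 26205, 23787 and 23205 in the young WT libraries and 32798, 24563 and 17767 in the young Mlkl-/- ones, then 17157, 19908 and 12748 in those of aged WT and 21498, 12679 and 10123 in those of aged Mlkl-/-. Within WT the age difference of the normal scores explained below was 0.34 ± 0.30 (SE, adjusted p = 0.687 by limma). Within Mlkl-/- it was 0.66 ± 0.30 (adjusted p = 0.325). The other 3 Il18 regions were called in 1 list each. Bco2, which runs the other way, also starts within 1 kb of this summit. RefSeq starts the gene slightly further upstream, and the 250 bases before that start, in the orientation of the gene and with the same marks, are given for comparison with the window at the summit.
Il18, bases before the start (chr9:50554450-50554699): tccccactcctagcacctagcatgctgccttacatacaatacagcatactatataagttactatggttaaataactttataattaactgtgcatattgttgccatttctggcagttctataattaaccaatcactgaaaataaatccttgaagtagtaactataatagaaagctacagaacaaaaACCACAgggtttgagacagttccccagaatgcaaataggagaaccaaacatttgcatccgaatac

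**Figure D2:**
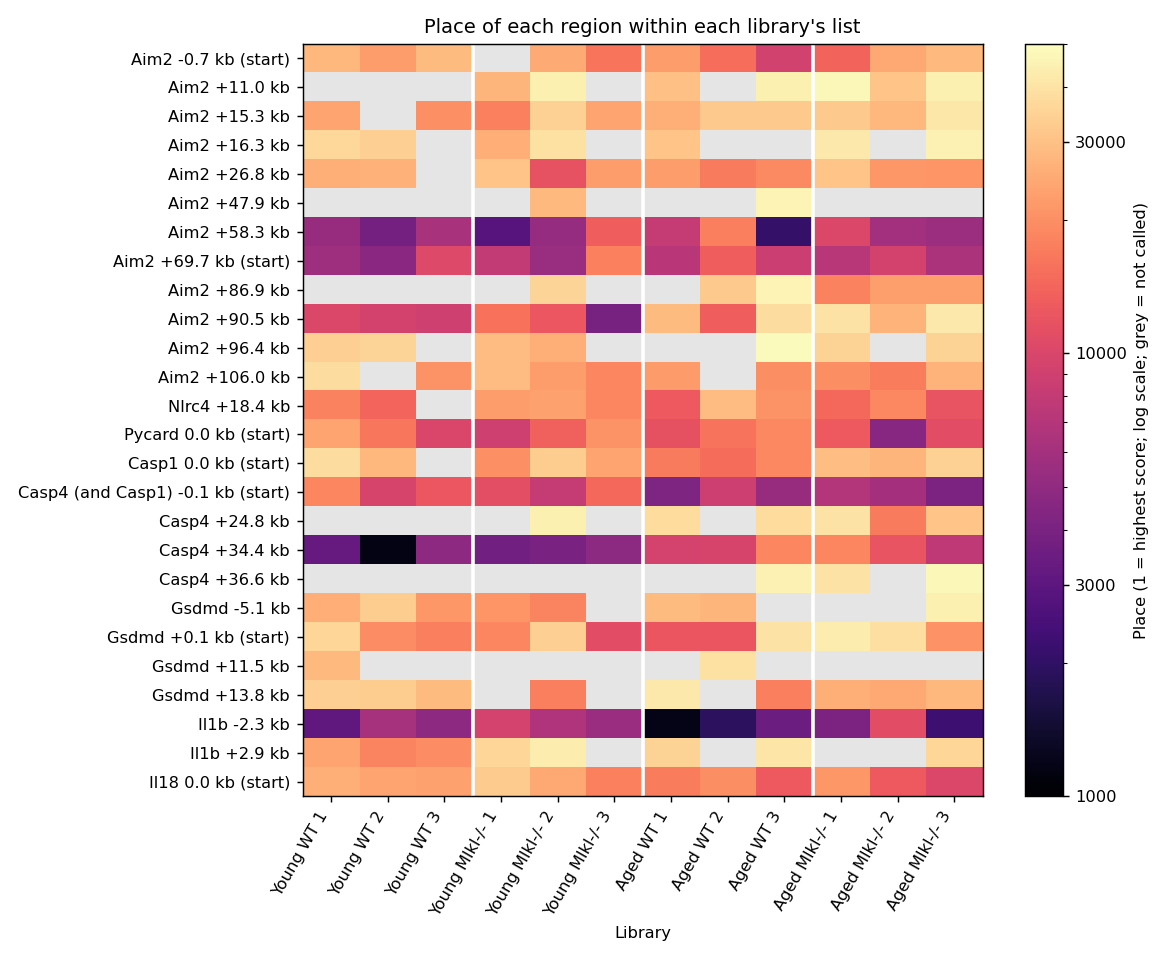
Place of each region in each library's list for the regions called in at least 2 lists (rows, labelled by gene and distance of the summit from the 5′ end of the gene in kb; columns, libraries; log colour scale, darker for a higher score, grey for not called). The Casp4 region at 34.4 kb, between Casp4 and Casp12, ran from place 1153 to 4830 in young lists. In aged lists it ran from 7733 to 18733. The region upstream of Il1b was called in all 12 columns, at places 1197 to 11149.

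To compare groups, every list was first trimmed to its best-scoring 35714 summits, and regions were ranked within each list by score and given normal scores, a scale without unit on which a higher value is a higher rank. A region that was not retained in the reduced list had a score of −0.525 to −0.575. Of the 34 regions, 19 were retained in at least 3 lists and were tested, among 37886 in all, and 15 were not tested. A region retained in few lists can enter the test through the group in which it is high. Of the 19, 2 (described below) were retained in libraries of 1 group alone, against 0.454% of all tested regions. They are also the 2 of the 19 retained at 1 age alone, against 8.36% of all. At the young age 14.7 ± 1.15 of the 34 regions were retained per library in WT and 15.7 ± 0.577 in Mlkl-/-, and at the aged one 14.0 ± 1.73 in WT and 14.7 ± 2.08 in Mlkl-/- (SD, n = 3 libraries each). Of the whole catalogue, 40.0% to 43.5% was retained per library.

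With age, 2 of the 19 tested regions changed across both genotypes at an adjusted p under 0.01 (limma, Benjamini-Hochberg over all regions), against 2.72% of all regions, and both were lower in aged HSCs, against 1.0% of all regions (379 lower and 650 higher). They were the region between Casp4 and Casp12 and the intronic Aim2 region at 90.5 kb. None of the 19 was called higher. The median age difference was 0.17 over the 19 and −0.01 over all regions. An unadjusted p under 0.05 was reached by 6 of the 19 (31.6%), against 22.1% of all, and the 6 include the 2 regions retained in 1 group alone.

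The region between Casp4 and Casp12 lies 34.4 kb from the 5′ end of Casp4 and 2.16 kb from the start of Casp12, a caspase related to the inflammatory ones. It was called in all 12 lists. Normal scores were 1.68, 2.14 and 1.49 in WT and 1.63, 1.59 and 1.49 in Mlkl-/- among the young libraries, and 1.11, 1.10 and 0.64 in WT and 0.63, 0.96 and 1.23 in Mlkl-/- among the aged. Every young library was above every aged one, which held for 1 of the 19 tested regions and for 3.88% of all. The mean went from 1.67 ± 0.24 to 0.94 ± 0.25 (SD, n = 6 each), a difference of −0.72 ± 0.14 (SE, 95% interval −1.02 to −0.43, adjusted p = 0.0039 by limma). Within WT the difference was −0.82 ± 0.20 (adjusted p = 0.0417) and within Mlkl-/- −0.63 ± 0.20 (adjusted p = 0.114). The call was lost with list length (−0.78, adjusted p = 0.0447) or Y-linked starts (−0.73, 0.0319) as a covariate, in the 9 tagged libraries (−0.57, 0.0549) and with percentile ranks (adjusted p = 0.0147). It was also lost, at adjusted p-values of 0.011 to 0.0148, without young WT library 2, young Mlkl-/- library 1, aged WT library 3, or aged Mlkl-/- library 1 or 2.

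The Casp12 start itself was a separate region (chr9:5345174-5345837). It was called in 0 of 6 young lists, in aged WT library 3 (place 45563) and in aged Mlkl-/- libraries 1 and 3 (places 40076 and 47588). These are the 3 longest lists, the region was retained in none once lists had equal length, and it was not tested.

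The Aim2 region at 90.5 kb (chr1:173441014-173441700, in an intron, 13.6 kb from the nearest start of the gene) was called in all 12 deposited lists. Its normal scores were 1.07, 1.12 and 1.14 in the young WT libraries and 0.76, 0.94 and 1.59 in the young Mlkl-/- ones, then 0.24, 0.88 and −0.57 in those of aged WT and −0.57, 0.30 and −0.56 in those of aged Mlkl-/-. It was retained in 6 of 6 young libraries and in 3 of 6 aged ones, and aged WT library 2 lay within the young range. The mean went from 1.10 ± 0.28 to −0.04 ± 0.61 (SD, n = 6 each), a difference of −1.15 ± 0.25 (SE, 95% interval −1.67 to −0.63, adjusted p = 0.00805 by limma). Within WT the difference was −0.92 ± 0.35 (adjusted p = 0.203) and within Mlkl-/- −1.37 ± 0.35 (adjusted p = 0.0551). Without any 1 library other than aged WT 2 or aged Mlkl-/- 2 the call was lost, at adjusted p-values of 0.0139 to 0.0264. It was lost too with list length (−0.62, adjusted p = 0.283) or Y-linked starts (−1.35, 0.0219) as a covariate, in the tagged libraries (−0.93, 0.056), with percentile ranks (adjusted p = 0.0248) and with windows of 100 bp (0.0103).

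The start regions did not pass the threshold with age. The Casp4 start came nearest, with a mean of 0.95 ± 0.20 in young and 1.40 ± 0.16 in aged libraries (SD, n = 6 each), a difference of 0.45 ± 0.13 (SE, 95% interval 0.18 to 0.72, adjusted p = 0.0362 by limma). Of the 2 Casp4 regions called in all 12 lists, the one toward Casp12 thus passed with a negative difference, while the start had a positive one that missed the threshold. The Il18 start had the largest age difference of the start regions, 0.50 ± 0.21 (95% interval 0.05 to 0.95, adjusted p = 0.171). Without young Mlkl-/- library 1, in which the Il18 start was not retained (−0.55), its difference was 0.32. In that setting the Casp4 start had 0.45 and the Casp1 start 0.52. The intervals of the outer Aim2 start (0.39, −0.10 to 0.87), the Casp1 start (0.41, −0.15 to 0.97), the Pycard start (0.17, −0.18 to 0.51), the Gsdmd start (−0.18, −0.92 to 0.56) and the inner Aim2 start (−0.04, −0.34 to 0.26) all included 0. The upstream Il1b region differed by 0.29 (−0.01 to 0.59, adjusted p = 0.235).

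**Figure D3:**
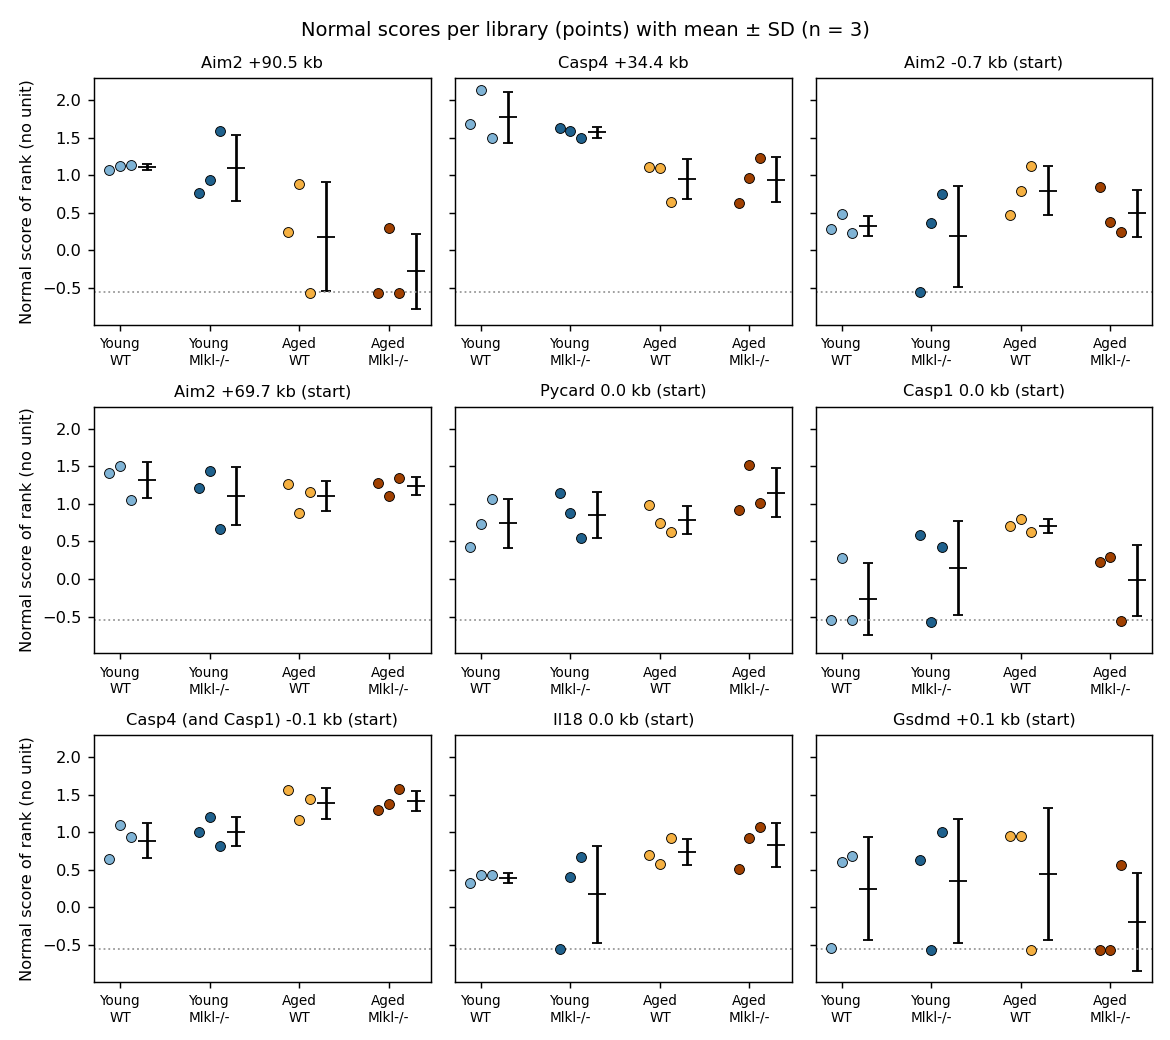
Normal scores (y axis, no unit) of the regions past the threshold with age and of the start regions called in at least 11 lists, with 1 point per library and the mean ± SD of each group (n = 3), and a dotted line at the mean score of regions that were not retained. The Aim2 region at 90.5 kb and the region between Casp4 and Casp12 (labelled Casp4, 34.4 kb) sit lower in aged libraries. The ages overlap at the starts shown, among which the Casp4 start was 0.45 higher in aged libraries.

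Over the 12 libraries, the start regions of other genes whose normal scores ran most closely with those of the Il18 start were those of Csf1 (Spearman's rho 0.923), Rsad2 (0.916) and Chrm3 (0.909). Csf1 encodes a growth factor of macrophages, Rsad2 an antiviral protein induced by interferon and Chrm3 a muscarinic receptor. These values were picked as the highest of many over libraries that share their list lengths, and describe likeness of pattern only.

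Within a single genotype, none of the 19 regions passed the threshold with age, against 0.201% of all regions in WT and 0.150% in Mlkl-/- (limma). An unadjusted p under 0.05 was reached by 5 of the 19 in each genotype (26.3%, against 14.6% of all in WT and 14.4% in Mlkl-/-), of which 1 in each genotype was retained in 1 group alone. The lowest adjusted p among regions retained in more than 1 group was 0.0417 in WT, for the region between Casp4 and Casp12, and 0.0551 in Mlkl-/-, for the Aim2 region at 90.5 kb.

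The regions retained in 1 group alone are described without a test, as every other library held the fixed score of a region not retained. The Il1b intronic region (chr2:129368003-129368586) had normal scores of 0.42, 0.64 and 0.60 in young WT, and it was retained in none of the other 9 libraries, whose scores lay between −0.57 and −0.52. The deposited lists called it in 3 WT and 2 Mlkl-/- libraries of the young and in 2 WT and 1 Mlkl-/- libraries of the aged, at places of 34796 or beyond outside young WT. It was thus called outside young WT too, low in those lists.

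The Aim2 region at 86.9 kb (chr1:173437408-173438006), 17.1 kb from the nearest start, was retained in aged Mlkl-/- at scores of 0.66, 0.47 and 0.47 and in none of the other 9 libraries. The deposited lists called it in 0 WT and 1 Mlkl-/- libraries of the young and in 2 WT and 3 Mlkl-/- libraries of the aged.

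Between Mlkl-/- and WT, 0 of the 19 regions passed the threshold at either age, over both ages, or for the interaction of genotype with age (limma, adjusted p under 0.01), and 0.00% of all regions passed in each of these 4 comparisons. An unadjusted p under 0.05 was reached by 3 of 19 over both ages (15.8%, against 6.22% of all), by 1 at 3 months (5.26%, against 5.37%), by 1 at 18 months (5.26%, against 5.1%) and by 3 for the interaction (15.8%, against 4.8%). The Il1b intron and the Aim2 region at 86.9 kb, each retained in 1 group alone, are 2 of the 3 over both ages, the one at 3 months, the one at 18 months and 2 of the 3 for the interaction, so these counts follow in part from the filter. The others were the upstream Il1b region over both ages (−0.33, 95% interval −0.63 to −0.03) and the Casp1 start for the interaction (−1.14 ± 0.53). The Casp1 start had an age difference of 0.98 ± 0.38 in WT (adjusted p = 0.215). Its young WT scores were −0.54, 0.28 and −0.54, as it was retained in 1 young WT library. This difference and the interaction are thus set in part against the fixed score.

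**Figure D4:**
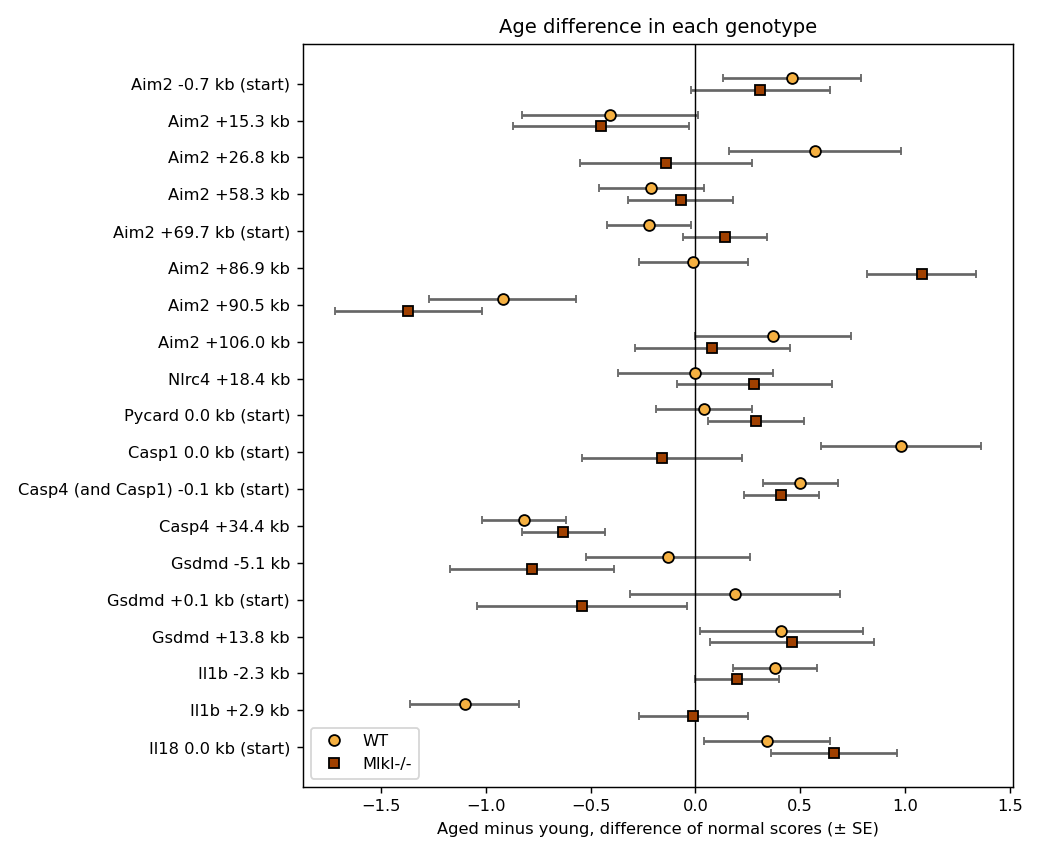
Difference between aged and young normal scores (x axis, no unit, ± SE) of the 19 tested regions in WT (circles) and Mlkl-/- (squares), labelled by gene and distance from its 5′ end in kb. Both genotypes lie left of 0 at the Aim2 region at 90.5 kb and the region between Casp4 and Casp12 (labelled Casp4, 34.4 kb). The Il1b region at 2.9 kb and the Aim2 region at 86.9 kb were each retained in 1 group alone. Their values away from 0 follow from that.

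Motif matches in the 201 bases around the summits were counted on both strands. ETS letters occurred in 13 of the 34 regions (38.2%, against 27.4% of all regions), RUNX letters in 12 (35.3%, against 23.1%), NF-kB letters in 2 (5.88%, against 2.72%), AP-1 letters in 2 (5.88%, against 10.2%), ISRE/IRF letters in 3 (8.82%, against 7.37%), C/EBP letters in 3 (8.82%, against 8.1%) and GAS letters in 2 (5.88%, against 5.59%). ETS and RUNX factors govern many genes of blood stem cells, and NF-kB induces inflammasome genes. The NF-kB letters printed above stand at position 113 of the Casp4 start window (GGATTTCCC), and its ETS letters at position 165. The Nlrc4 intron held ETS letters at positions 50, 74 and 155. The 250 bases before the Il18 start held RUNX letters at position 186, as did 14.0% of 32851 RefSeq promoters anywhere in that length, and the window at its summit held them at positions 85 and 122. The Aim2 window at 90.5 kb held none of the 7 motifs.

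Other genes of the pathway were read in the same way, from a list of 40 genes with 160 regions, 97 of them tested. With age across both genotypes, 0 were higher and 4 lower (4.12% of those tested), with a median difference of −0.12. Of all regions, 2.72% passed in either direction and 1.0% passed as lower. Of the 4, the Nlrp1b region was retained at 1 age alone, as were 8.36% of all tested regions. At Mefv and Panx1 most aged values were the fixed score of a region not retained. The count of 4 thus follows in part from the filter. In the other comparisons 0 of the 97 passed the threshold. Starts were called in all 12 lists for 22 of the 40 genes, in some lists for 10 and in none for 8.

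Among 11 further sensors, 2 of 17 tested regions passed as lower with age, both with aged values mostly or wholly at the fixed score. The start region of Nlrp1b, a sensor of pathogen proteases (chr11:71230542-71231204), was retained in 6 of 6 young and 0 of 6 aged libraries, and so entered the test through the young libraries alone. Its fitted difference of −1.32 ± 0.23 (adjusted p = 0.00178 by limma) is set against the fixed score of a region not retained. In the deposited lists it was called in 6 young and 5 aged libraries, at places 6757 to 27467 and 31049 to 40233. These lists differ in length, so the places are not on 1 scale. The call was lost with list length (−1.58, adjusted p = 0.0155) or Y-linked starts (−1.21, 0.0244) as a covariate, in the tagged libraries (−1.21, 0.0204) and at a score of at least 5 (−1.09, 0.017). A region 5.35 kb from the start of Mefv, which encodes the sensor pyrin (chr16:3723052-3723775), differed by −1.20 ± 0.24 (adjusted p = 0.00431). It was retained in 6 young and 1 aged libraries, so most aged values were likewise the fixed score. The most highly placed start of these sensors was that of Nod1, a sensor of bacterial peptidoglycan (median place 10413).

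Among 7 caspases and executioners, 1 of 16 tested regions was lower, at the start of Ninj1, whose product ruptures the plasma membrane after pore formation (chr13:49187048-49188357). It was called in all 12 lists, at places 2349 to 5388 in young and 6521 to 13062 in aged libraries, a difference of −0.56 ± 0.11 (adjusted p = 0.00466). Its start was also the most highly placed of that group (median place 5954). Among 14 priming and regulatory genes, 1 of 52 tested regions was lower, in an intron of Panx1, a channel that releases ATP (chr9:15017913-15018688, −1.13 ± 0.23, adjusted p = 0.00472). It was retained in 6 young and 2 aged libraries. Tnfaip3, an inhibitor of NF-kB signalling, had the most highly placed start of that group (2208). Among 8 cytokines and receptors, 0 of 12 tested regions passed, and the start of Il1r1, the IL-1 receptor, was placed highest (2824).

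The calls at Mefv, Ninj1 and Panx1 depended on single libraries. The Mefv call was lost, at adjusted p-values up to 0.0161, without any young WT library, young Mlkl-/- 1, aged WT 1, or aged Mlkl-/- 1 or 2. The Ninj1 call was lost, up to 0.0177, without young WT 2 or 3, young Mlkl-/- 2, aged WT 1 or 3, or aged Mlkl-/- 2 or 3. The Panx1 call was lost, up to 0.0192, without young WT 2 or 3, any young Mlkl-/- library, or aged Mlkl-/- 1 or 2. With list length as a covariate the difference was −1.34 (adjusted p = 0.0407) for Mefv, −0.56 (0.0638) for Ninj1 and −0.98 (0.105) for Panx1. With Y-linked starts as a covariate it was −1.08 (0.0517), −0.63 (0.0186) and −1.22 (0.0226) in the same order. In the tagged libraries the calls at Ninj1 (−0.52, 0.0377) and Panx1 (−0.94, 0.0188) were lost, at a score of at least 5 that at Mefv (−0.99, 0.0274), with percentile ranks those at Mefv (0.0107) and Panx1 (0.0123), and with all deposited summits that at Panx1 (−1.01, 0.0132). The direction was negative in each of these.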

How the data were processed

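Chromatin accessibility was measured by ATAC-seq in HSCs of 12 libraries (4 groups of 3). Per the study's methods, the authors mapped single reads to mm10 with Bowtie2 (2.5.3) and called peaks in each library separately with MACS2 (2.2.7.1). The deposited files are summit lists, scored by the authors' peak caller as −log10 of a q-value. The lowest score in a list was 2.0 to 2.01, below the stated cutoff, so summits of score 3 or more on chromosomes 1 to 19, X and Y were used. The lists hold no read counts, so depth is unknown, no counting interval can be given, and a score depends on the depth of its own library.

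Each list was reduced to 35714 summits (tied summits drawn at random, seed fixed). Normal scores of within-list rank, which measure relative rank and not accessibility itself, were fitted with limma (3.58.1, R 4.3.3) on 37886 regions retained in at least 3 lists, with a mean per group and 7 contrasts. P-values were adjusted by the Benjamini-Hochberg method over all regions tested, at 0.01, the limit the study's methods state for differential regions. The fit was tested on lists simulated with age differences alone. The sequence of 1 region is not reported here. Regions were annotated with GENCODE M21, and starts were restricted to protein-coding transcripts after the regions had been seen. The restriction left out an annotated Il1b start that lies 923 bp from the Il1b intronic region. Named regions are the starts, those called in all 12 lists, those past the threshold and, for each gene, the tested region of largest age difference. The naming of the Aim2 region at 86.9 kb, the Gsdmd downstream region, the Casp4 intronic region and the Casp12 start was added after the values had been seen, as were the alternatives for Nlrp1b, Mefv, Ninj1 and Panx1 and for the tested regions outside the naming rule. The member genes and the other gene lists were chosen with earlier results of these data known. Replicate numbers did not pair the libraries (given with the alternatives). Alternatives were the score minimum, window width, flank, ranking scale, minimum number of lists, covariates, replicate block and left-out libraries.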

Additional observations from a re-analysis of the deposited data

How the results depend on the processing

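The number of regions of the 9 genes past the threshold with age across both genotypes was 2. It was 2 also with all deposited summits, a score of at least 5, lists of unequal length, and regions in at least 2 or 6 lists. It was 1 with windows of 100 bp, with a flank of 2 kb and with the replicate block, 0 with percentile ranks, list length as covariate, Y-linked starts as covariate or the tagged libraries alone, and 0 to 2 without each library in turn. At an adjusted p under 0.05 it was 3 (7.75% of all regions passed), and 2 for age in WT (1.9%) and 1 for age in Mlkl-/- (1.48%), with a region retained in 1 group alone among each of these last counts. Over all regions the same contrast gave 1029 calls, 2030 with lists of unequal length, 60 with list length as covariate, 330 with Y-linked starts as covariate, 211 in the tagged libraries and 666 to 1047 without each library. List length, Y-linked starts and age vary together here, and their parts cannot be told apart. Same-numbered libraries did not deviate together (18 pairs, correlation −0.301 to 0.128, 1 of them over 0.1), and in the block the Aim2 region at 90.5 kb had an adjusted p of 0.011. Of pairs with unlike numbers, young Mlkl-/- 2 and aged WT 3, both without the file-name tag, had 0.307. Aged Mlkl-/- 1, also without it, had 0.101 and 0.11 with these. Young Mlkl-/- 3 and aged WT 2, both tagged, had 0.267.

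Of the 17 tested regions whose age difference missed the threshold, 6 changed sign under an alternative. The Aim2 region at 173408969 (−0.14) was 0.03 with Y-linked starts as covariate and −0.30 to 0.01 without each library. The inner Aim2 start (−0.04) was 0.16 with Y-linked starts, 0.02 in the tagged libraries and −0.15 to 0.04 without each library. The Gsdmd start (−0.18) was 0.34 with list length as covariate and −0.41 to 0.08 without each library, and the Nlrc4 intron (0.14) was −0.17 and −0.07 to 0.35. The intronic Aim2 region at 173365869 (−0.43) was 0.06 with list length, and that at 173377277 (0.21) was 0.0 to 0.39 without each library. The cause was not tested. Separate fits of the groups give no value for contrasts over 4 groups. The summit lists limit the precision: a region is seen only where its summit passed the caller's threshold, and a region not called has no measured level.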
